A study of Homo sapiens with 27 samples.

Results

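The genes described here encode components and regulators of complement, the proteolytic cascade of blood and tissue fluid that tags and lyses foreign or damaged cells. They were the 9 genes C1S, C1R, C1RL, C3, CFB, CFI, CD46, CD55 and CD59, chosen by symbol from the deposited count table. All 9 were found among 36536 genes, and all 9 were among the 15575 genes that passed the filter on low counts. The study profiled MCF10A, a line of human breast epithelial cells that do not form tumors, by RNA-seq of polyadenylated RNA, with 3 libraries in each of 9 groups. Its title concerns responses to combined signals that are not additive.

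Cells of every group were plated on collagen-1 in growth medium with 20 ng/ml EGF, horse serum, hydrocortisone, cholera toxin and insulin, left to attach for 6 h, and held for 18 h in medium free of growth factors. The T0 group was collected at that point (0 h). The PBS group (vehicle, phosphate-buffered saline) and 7 ligand groups were collected 24 h later. The ligands were EGF (epidermal growth factor), OSM (oncostatin M, a cytokine related to interleukin-6) and TGFB (transforming growth factor beta), each at 10 ng/ml. They were given as EGF, OSM, TGFB, EGF+OSM, EGF+TGFB, OSM+TGFB and EGF+OSM+TGFB. All libraries came from a single cell line, and nothing in the labels says that the 3 libraries of a group came from separate cultures, so the p-values measure the spread between these samples, which may be technical.

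In the classical pathway, C1R and C1S encode the serine proteases that C1q carries. C1r activates C1s, and C1s then cleaves C4 and C2. C1RL encodes a protease related to C1r. C3 is the protein on which all complement pathways converge, and CFB encodes factor B, which joins the C3 fragment C3b to form the C3 convertase of the alternative pathway. CFI encodes factor I, the secreted protease that inactivates C3b and C4b with a cofactor. CD46 is such a cofactor on the cell's own membrane, CD55 (decay-accelerating factor) takes convertases apart, and CD59 blocks assembly of the membrane attack complex. The liver makes most plasma complement, and epithelial cells are known to make some components themselves.

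C1S, C1R and C1RL lie close together on chromosome 12 (GENCODE v44, GRCh38). C1S (ENSG00000182326) spans 6988259 to 7071032 on the plus strand, C1R (ENSG00000159403) 7080214 to 7092540 on the minus strand, and C1RL (ENSG00000139178) 7089587 to 7109238 on the minus strand. The C1R and C1RL gene models overlap on the same strand, so a part of their reads could be assigned to either. C3 (ENSG00000125730) lies on chromosome 19 at 6677704 to 6730562, minus strand. CFB (ENSG00000243649) lies on chromosome 6 at 31945650 to 31952086, plus strand. CFI (ENSG00000205403) lies on chromosome 4 at 109731008 to 109802150, minus strand. CD46 (ENSG00000117335; 207752037 to 207795513) and CD55 (ENSG00000196352; 207321519 to 207386804) are both on the plus strand of chromosome 1. CD59 (ENSG00000085063) is on chromosome 11 at 33703010 to 33736479, minus strand.

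C1R and C1RL each had 2 rows in the deposited table, which held equal totals (50% each), and CFB had 7 rows, of which 5 held between 16.4% and 20.7% of its counts each. The CFB row with the identifier given above, ENSG00000243649, held 0.748% of the CFB counts. The sources used here do not say whether such rows split a gene's reads or repeat them. If they repeat them, the summed levels of these 3 genes are too high by a factor that is nearly the same in every group, while differences between groups are little affected: taking the row with the most counts in place of the sum changed the call of 1 of the 171 pairs of a gene and a comparison examined, CFI for the departure of EGF and OSM described below, and none of these 3 genes.

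The start sites of the genes that OSM raised are shown first. Of the 6 with a promoter at hand, 4 share a short sequence in at least 1 entry each. Promoters (250 bases before to 50 after the annotated start; RefSeq, GRCh38.p14) were at hand for 7 of the 9 genes, with 12 entries in all. They were searched on both strands for TTCNNNGAA, the letters bound by STAT factors, for TGANTCA (AP-1), GGANTTTCC (NF-kB) and CAGAC (SMAD). The STAT letters occurred in at least 1 promoter each of CFB, C1R, C1RL and CD59, and not in those of CFI, CD46 or CD55. Over the whole table, 7.66% of 35116 promoters held them, and 9.38% of 27305 genes had at least 1 promoter that did. Capitals below mark the STAT letters and, in C1RL, also the AP-1 letters, which begin 125 bases before the start.
CFB, chr6:31945845-31946144, plus strand: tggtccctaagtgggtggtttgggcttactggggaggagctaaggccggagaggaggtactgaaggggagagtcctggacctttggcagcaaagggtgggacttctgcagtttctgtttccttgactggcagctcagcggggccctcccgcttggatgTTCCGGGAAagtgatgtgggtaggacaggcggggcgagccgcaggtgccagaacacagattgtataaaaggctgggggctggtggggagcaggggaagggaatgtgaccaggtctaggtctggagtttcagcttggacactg
C1R, chr12:7091844-7092143, minus strand: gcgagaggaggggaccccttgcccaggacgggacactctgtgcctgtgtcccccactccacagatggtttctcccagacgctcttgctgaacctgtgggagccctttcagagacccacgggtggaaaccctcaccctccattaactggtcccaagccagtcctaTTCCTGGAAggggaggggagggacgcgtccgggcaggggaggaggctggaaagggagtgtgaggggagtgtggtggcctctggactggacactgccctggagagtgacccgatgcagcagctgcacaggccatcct
C1RL, chr12:7109165-7109464, minus strand: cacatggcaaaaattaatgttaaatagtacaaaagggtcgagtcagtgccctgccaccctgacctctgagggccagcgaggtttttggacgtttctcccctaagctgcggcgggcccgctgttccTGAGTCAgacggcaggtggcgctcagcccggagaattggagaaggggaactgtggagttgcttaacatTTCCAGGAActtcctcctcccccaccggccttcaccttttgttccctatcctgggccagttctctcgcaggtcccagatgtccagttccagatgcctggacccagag
CD59, chr11:33736430-33736729, minus strand: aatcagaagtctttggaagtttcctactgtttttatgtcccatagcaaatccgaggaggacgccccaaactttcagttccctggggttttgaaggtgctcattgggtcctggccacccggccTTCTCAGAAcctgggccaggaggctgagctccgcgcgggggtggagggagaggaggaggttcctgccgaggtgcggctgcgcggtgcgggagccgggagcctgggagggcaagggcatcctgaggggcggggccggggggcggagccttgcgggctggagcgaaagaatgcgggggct
CFI, chr4:109801950-109802249, minus strand: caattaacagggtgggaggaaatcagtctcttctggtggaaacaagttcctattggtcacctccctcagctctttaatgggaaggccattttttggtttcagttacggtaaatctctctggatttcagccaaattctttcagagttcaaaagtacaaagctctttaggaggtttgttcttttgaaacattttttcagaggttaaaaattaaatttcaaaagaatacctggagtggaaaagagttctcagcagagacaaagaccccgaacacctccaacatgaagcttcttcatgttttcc
In the entries shown, the STAT letters began 92 bases before the start in CFB, 86 in C1R, 57 in C1RL and 128 in CD59. The last entry, CFI, is shown because OSM raised it by 2-fold or more while its window holds none of these letters. CD46, which OSM raised by less, also has none in either of its 2 entries. Genes with several entries, such as C1R and CD59, had more than 1 window in which a match could occur. The other C1R entry, chr12:7092396-7092695, held no STAT letters. The CD59 entries chr11:33722900-33723199 and chr11:33722678-33722977 held none either. AP-1 letters also occurred 3 times in a second CD59 promoter, as against 9.37% of genes with any match. NF-kB letters occurred in none of the 12 entries (2.01% of genes). SMAD letters, which are short and occurred in 50% of all genes, were found in CD55, CFB, CD59, C1R and C1RL. A match describes letters only and does not show that a factor binds there.

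The libraries held 30.1 M to 52.9 M counts (median 39.5 M, where M is 1e6). Levels below are in CPM, counts scaled to a TMM-corrected library of 1 M, and TMM factors ran from 0.867 to 1.12. Basal mammary keratins and related markers (6 of 6 above 1 CPM; summed 10223 to 25384 CPM over the libraries) and general epithelial markers (4 of 4) were present in every group. Of 5 fibroblast markers, COL1A1 and DCN were above 1 CPM while COL3A1, LUM and PDGFRB were not. Their sum was 129 to 133 CPM in PBS, 30.7 to 35.9 in EGF, 87.7 to 110 in OSM and 204 to 214 in TGFB. Of 6 immune markers, CD14 and CD68 were above 1 CPM, and PTPRC, LYZ, CD3E and MS4A1 were not. Their sum was 54.4 to 61.4 CPM in PBS, 26.1 to 29.8 in EGF and 96.2 to 119 in OSM, where it moved in the same directions as C1S and C1R. It was 34.7 to 44.6 CPM in TGFB, where C1R was called higher, and 52.1 to 58.7 CPM in EGF+OSM, where C1S and C1R were called lower. Its part in the results was not tested. The sum of 5 hepatocyte markers stayed at or below 1.58 CPM in every library, with means of 0.457 in PBS, 0.252 in EGF and 1.26 in OSM. The sum of 3 endothelial markers had means of 3.57 CPM in PBS, 0.842 in EGF and 1.71 in OSM.

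A difference was called when the adjusted p of edgeR's quasi-likelihood test, adjusted by the Benjamini-Hochberg method over all genes tested, was under 0.05, and a second count required in addition a change of at least 2-fold. Fold changes are given on the log2 scale with their standard error (SE), from a fit over all 27 libraries. The 7 ligand groups share the 3 PBS libraries as their control.

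EGF alone lowered 8 of the 9 genes and raised CD59. Against PBS all 9 were called, in a comparison where 73.5% of all genes tested were called and 38.6% were called lower. At 2-fold or more, 6 fell and none rose (C1S, C1R, CFB, C3, C1RL and CFI), where 27.5% of all genes were called at that size and 15.9% in the lower direction. The median log2 fold change was -1.28 over the 9 genes and -0.07 over all genes. In bulk RNA, fewer cells that express a gene and less RNA per cell cannot be told apart.

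OSM alone raised 7 of the 9 genes and left C3 and CD55 uncalled, where 63.4% of all genes were called and 33.5% were called higher. At 2-fold or more, 6 rose and none fell (C1R, C1S, CFB, CFI, C1RL and CD59), against 20.1% of all genes called at that size and 10.1% in the higher direction. The median was 1.38 over the 9 genes and 0.00 over all genes. TGFB alone changed fewer of them. It raised C1R and CD59 and lowered C3, CFB and CD55, so 5 of 9 were called where 35.6% of all genes were (19.9% higher, 15.8% lower). None of the 9 changed by 2-fold or more, where 5.80% of all genes did.

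**Figure D1:**
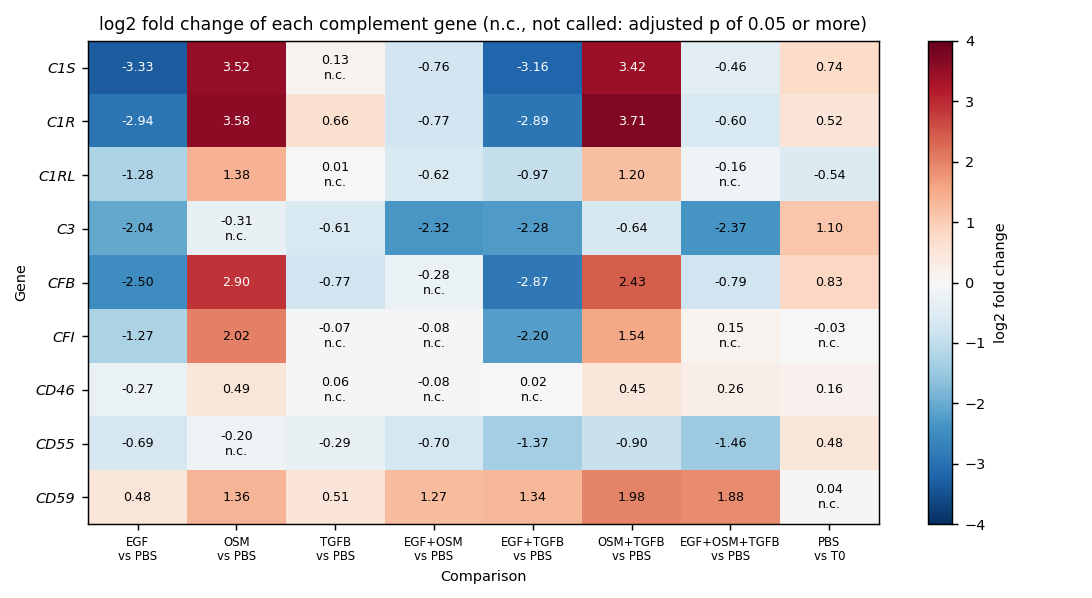
Log2 fold changes of the 9 genes in the 7 comparisons with PBS and in PBS against T0, as a colour map with genes in rows and comparisons in columns. C1S, C1R and CFB have the darkest cells in both directions (log2 fold changes of -3.33, -2.94 and -2.50 with EGF and 3.52, 3.58 and 2.90 with OSM), whereas CD59 is positive in all 7 ligand groups.

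C1S had the widest span of the 9 genes, from a group mean of 1.02 CPM with EGF to 118 CPM with OSM, a ratio of 116. In PBS its 3 libraries held 10.4, 10.5 and 10.1 CPM. With EGF they held 1.16, 1.02 and 0.878 CPM, and with OSM 111, 143 and 99.0 CPM. The 3 groups were far apart and did not overlap. The log2 fold change against PBS was -3.33 ± 0.21 (SE) with EGF (adjusted p = 3.37e-12, edgeR) and 3.52 ± 0.15 with OSM (adjusted p = 4.85e-15). The EGF values rest on 36 to 52 counts per library, so their counting error is large. TGFB libraries held 9.68, 11.6 and 12.6 CPM, which overlapped PBS (log2 fold change 0.13, 95% interval -0.20 to 0.46, not called).

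Combinations moved C1S between these extremes. With EGF+OSM its libraries held 4.39, 6.28 and 7.46 CPM, below every PBS library although OSM alone had raised it (-0.76 ± 0.17, adjusted p = 0.000246, edgeR). With all 3 ligands they held 6.63, 7.63 and 8.37 CPM. That is also below PBS (-0.46 ± 0.17, adjusted p = 0.0166), but the call was lost without replicate 1 of the EGF+OSM+TGFB group (-0.39, adjusted p = 0.0664). With OSM+TGFB C1S stood at 102, 125 and 104 CPM, within the range of OSM alone. With EGF+TGFB it stood at 1.15, 1.09 and 1.23 CPM, which overlapped EGF alone. In order of level the groups were OSM and OSM+TGFB, then TGFB and PBS, then EGF+OSM+TGFB, T0 and EGF+OSM, then EGF+TGFB and EGF, and within each of these sets neighbouring groups overlapped.

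C1R, which encodes the protease that activates C1s, followed nearly the same pattern. Its PBS libraries held 32.2, 31.9 and 31.2 CPM, its EGF libraries 4.45, 3.87 and 4.15 CPM, and its OSM libraries 370, 470 and 300.2 CPM. None of these groups overlapped. EGF lowered it 7.65-fold (-2.94 ± 0.16, adjusted p = 3.66e-13, edgeR) and OSM raised it 12.0-fold (3.58 ± 0.14, adjusted p = 1.63e-15). Unlike C1S, C1R was called higher with TGFB, with 46.8, 54.1 and 49.2 CPM (0.66 ± 0.13, adjusted p = 0.000423); whether the TGFB response of the 2 genes differs was not tested. EGF+OSM gave 16.8, 18.7 and 20.3 CPM, below all PBS libraries (-0.77 ± 0.14, adjusted p = 2.9e-05). The OSM+TGFB libraries held 379, 484 and 380.4 CPM, of which 484 CPM was the highest of this gene, and that group overlapped OSM.

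Over the 27 libraries the log2 levels of C1R and C1S had a Pearson r of 0.995. This describes 9 groups of 3 libraries that share their treatments. Per kilobase of the annotated canonical transcript (2488 bases for C1R, 2682 for C1S), the ratio of C1R to C1S was 3.32 ± 0.03 (SD, n = 3) in PBS and 3.46 ± 0.17 in OSM. It was 4.82 ± 0.54 in TGFB and 3.03 ± 0.34 in EGF+OSM+TGFB. If the 2 rows of C1R repeat reads, the size of this ratio is too high, but its changes between groups can be read. The libraries of TGFB (4.20 to 5.21), EGF (4.10 to 5.09), OSM+TGFB (3.95 to 4.16), EGF+TGFB (3.53 to 4.36) and T0 (3.53 to 4.17) all lay above every PBS library (3.29 to 3.35). The PBS range comes from 3 libraries and may understate the spread. The EGF and EGF+TGFB ratios rest on 36 to 52 and 36 to 54 C1S counts per library, so their counting error is large. Differences in the ratio were not tested.

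C1RL moved in the same directions by less. It held 26.8, 25.6 and 27.2 CPM in PBS, 11.6, 11.1 and 10.0 CPM in EGF and 70.6, 79.3 and 56.4 CPM in OSM, with no overlap (-1.28 ± 0.11 and 1.38 ± 0.10; adjusted p = 1.22e-10 and 1.45e-11, edgeR). It was the one gene of the 3 proteases with a higher level at T0 (40.2, 38.9 and 36.6 CPM) than in PBS. With EGF+OSM it stood at 18.4, 17.6 and 15.6 CPM, below PBS (-0.62 ± 0.11, adjusted p = 9.57e-06).

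**Figure D2:**
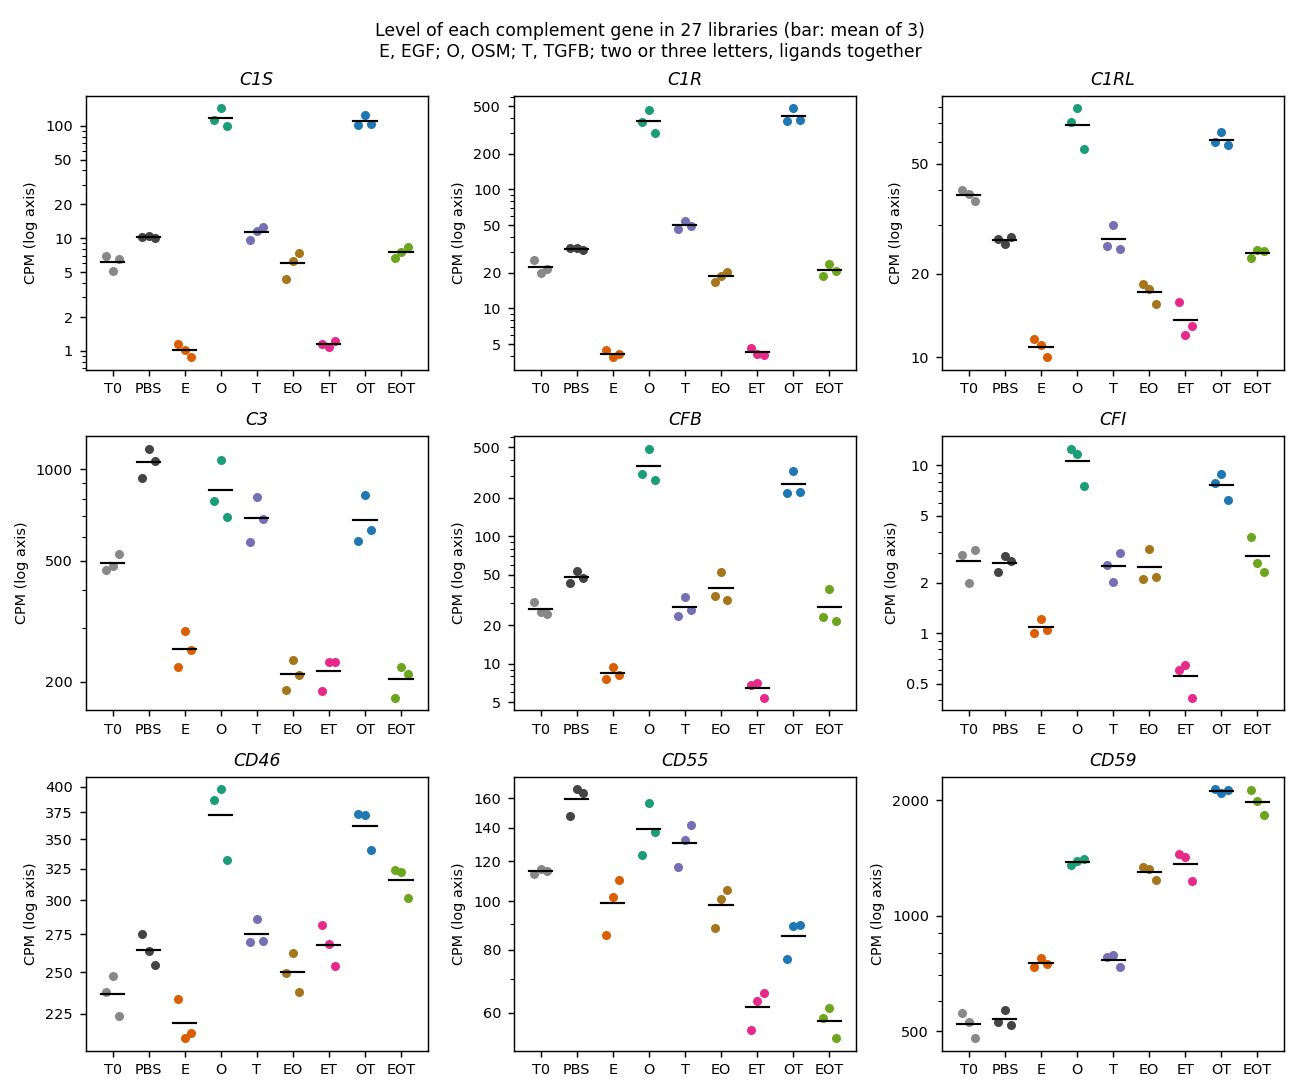
Level of each of the 9 genes in every library, in CPM on a log axis, with 1 panel per gene, groups along the horizontal axis, points for the 3 libraries and a bar for the group mean. C1S and C1R run in parallel from a low in the EGF groups to a high in OSM and OSM+TGFB, while C3 and CD55 have their highest mean in PBS and CD59 its highest in OSM+TGFB.

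C3 fell in every group that received EGF. Its libraries held 933, 1170 and 1063 CPM in PBS and 223, 294 and 255 CPM in EGF (-2.04 ± 0.17, adjusted p = 1.18e-09, edgeR). With EGF+OSM it held 188, 236 and 210 CPM, with EGF+TGFB 186, 232 and 233 CPM, and with all 3 ligands 177, 224 and 212 CPM. These 4 groups overlapped one another and lay below every library without EGF, T0 included. The fall was 4.10-fold with EGF and 5.16-fold with all 3 ligands.

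OSM libraries held 787, 1077 and 694 CPM of C3, overlapping PBS, with a log2 fold change of -0.31 (95% interval -0.66 to 0.04, adjusted p = 0.116, edgeR). Replicate 2 was the highest of the 3, and without it the difference was called (-0.51, adjusted p = 0.0122). The difference was also called with the replicate number added to the fit as a block (-0.31, adjusted p = 0.0053, edgeR). TGFB lowered C3 to 577, 813 and 686 CPM (-0.61 ± 0.17, adjusted p = 0.00681). OSM+TGFB gave 580, 826 and 632 CPM (-0.64 ± 0.17, adjusted p = 0.00228), which overlapped TGFB alone.

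CFB, by contrast, rose with OSM. Its libraries held 43.1, 53.1 and 46.9 CPM in PBS, 7.61, 9.46 and 8.24 CPM in EGF, and 307, 488 and 276 CPM in OSM, with no overlap. EGF lowered it 5.64-fold (-2.50 ± 0.27, adjusted p = 7.57e-08, edgeR) and OSM raised it 7.48-fold (2.90 ± 0.25, adjusted p = 3.26e-09). TGFB libraries held 23.8, 33.6 and 26.5 CPM, below PBS (-0.77 ± 0.25, adjusted p = 0.0201). That call was lost without PBS replicate 2 (adjusted p = 0.0701), TGFB replicate 1 (0.0852) or TGFB replicate 3 (0.0601). With EGF+OSM its libraries held 33.9, 52.1 and 31.7 CPM, overlapping PBS (-0.28, 95% interval -0.79 to 0.23). With all 3 ligands they held 23.2, 38.4 and 21.8 CPM (-0.79 ± 0.25, adjusted p = 0.00823).

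The 3 libraries of a group were not alike for C3 and CFB. Replicate 2 had the highest CFB level in 8 of 9 groups and the highest C3 level in 7 of 9, and no batch is given in the labels. The log2 levels of CFB had an r of 0.973 with C1S and 0.965 with C1R over the 27 libraries, and those of C3 an r of 0.673 with C1S, again as a description of shared treatments.

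CFI, whose product inactivates C3b and C4b, followed the C1 proteases at low levels. It held 2.3, 2.89 and 2.69 CPM in PBS, 1.00, 1.22 and 1.05 CPM in EGF, and 12.6, 11.8 and 7.56 CPM in OSM. The groups did not overlap (-1.27 ± 0.24 and 2.02 ± 0.22; adjusted p = 5.19e-05 and 9.8e-09, edgeR). EGF+TGFB gave its lowest levels, 0.605, 0.648 and 0.411 CPM, below every EGF library. This was a fall of 2.20 on the log2 scale against PBS (SE 0.28, adjusted p = 7.81e-08). With TGFB alone it held 2.53, 2.02 and 3.0 CPM, overlapping PBS. EGF+OSM and EGF+OSM+TGFB also overlapped PBS.

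The membrane regulators spanned less than the others: the ratio of the highest to the lowest group mean was 1.69 for CD46, 2.76 for CD55 and 4.06 for CD59, against 5.16 or more for the other 6. CD59 rose in all 7 ligand groups. Its libraries held 528, 567 and 520 CPM in PBS, 734, 773 and 747 in EGF, 781, 789 and 733 in TGFB, and 1351, 1390 and 1403 in OSM. The gains over PBS were 0.48 ± 0.06 with EGF, 0.51 ± 0.06 with TGFB and 1.36 ± 0.06 with OSM (adjusted p = 1.39e-07, 2.9e-07 and 1.02e-15, edgeR). EGF and TGFB alone overlapped each other.

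In the combinations CD59 ran from near the level of OSM alone to above it. EGF+TGFB gave 1445, 1423 and 1228 CPM, which overlapped OSM alone, and OSM+TGFB gave 2137, 2090 and 2128 CPM, the highest group (3.94-fold over PBS, adjusted p = 3.36e-19, edgeR). All 3 ligands gave 2122, 1987 and 1833 CPM (3.68-fold), which overlapped OSM+TGFB. EGF+OSM gave 1341, 1326 and 1236 CPM, which were below the 3 libraries of OSM alone, although EGF added to OSM was not called (-0.09, 95% interval -0.22 to 0.04). PBS and T0 overlapped.

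CD55 went the other way in the same combinations. It held 148, 167 and 164 CPM in PBS and fell with EGF to 85.8, 102 and 110 CPM (-0.69 ± 0.10, adjusted p = 1.02e-06, edgeR). Its lowest groups were EGF+TGFB at 55.5, 63.4 and 65.8 CPM (-1.37 ± 0.10, adjusted p = 1.07e-11) and all 3 ligands at 58.6, 61.5 and 53.4 CPM (-1.46 ± 0.10, adjusted p = 3.33e-12), which overlapped each other. OSM+TGFB gave 76.6, 89.3 and 89.7 CPM (-0.90 ± 0.10, adjusted p = 1.94e-08).

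With OSM alone CD55 held 123, 156 and 137 CPM, overlapping PBS (-0.20, 95% interval -0.40 to 0.00, adjusted p = 0.0778, edgeR). It was called lower without OSM replicate 2 (adjusted p = 0.0164) or PBS replicate 1 (0.0468). It was also called lower with upper-quartile scaling (-0.26, adjusted p = 0.0185, edgeR) and by DESeq2 (-0.22, adjusted p = 0.0423). The same held with the replicate number added to the fit as a block (-0.20, adjusted p = 0.00551, edgeR). With TGFB alone it held 117, 132 and 142 CPM (-0.29 ± 0.10, adjusted p = 0.0216). That call was lost without PBS replicate 2 (0.0817), PBS replicate 3 (0.0676) or TGFB replicate 1 (0.127). The r between CD55 and CD59 over the 27 libraries was -0.65.

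CD46 had the narrowest span, with group means from 220 CPM with EGF to 372 CPM with OSM, the ratio given above. It held 276, 264 and 254 CPM in PBS, 234, 211 and 214 in EGF and 386, 398 and 332 in OSM. None of these overlapped, and the changes were -0.27 ± 0.06 and 0.49 ± 0.06 (adjusted p = 0.00043 and 1.51e-07, edgeR). TGFB (269, 286 and 271 CPM), EGF+TGFB (282, 268 and 254 CPM) and EGF+OSM (249, 262 and 238 CPM) overlapped PBS. OSM+TGFB (374, 373 and 341 CPM) and all 3 ligands (324, 322 and 302 CPM) were called higher, by 0.45 ± 0.06 and 0.26 ± 0.06.

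In the combinations against PBS, EGF+OSM changed 6 of the 9 genes (77.2% of all genes tested were called, 39.6% lower), with CD59 higher and C3, C1R, C1S, C1RL and CD55 lower. EGF+TGFB changed 8 (73.7% of all genes, 37.5% lower), with CD59 higher and the others but CD46 lower. OSM+TGFB changed all 9 (66.0% of all genes, 34.2% higher), with C3 and CD55 lower and 7 higher. The 3 ligands together changed 7 (74.4% of all genes, 36.7% lower), with CD59 and CD46 higher and C3, CD55, CFB, C1R and C1S lower.

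Adding OSM to cells that already received EGF raised C1S 5.92-fold (2.57 ± 0.23, adjusted p = 6.87e-09, edgeR), CFB 4.65-fold (2.22 ± 0.27, adjusted p = 2.49e-06), C1R 4.48-fold (2.16 ± 0.17, adjusted p = 8.15e-10) and CFI 2.28-fold (1.19 ± 0.25, adjusted p = 0.00046). CD59, C1RL and CD46 rose by less than 2-fold, and the CD46 call (0.19 ± 0.06, adjusted p = 0.0225) was lost without EGF replicate 2 (0.0989), EGF replicate 3 (0.0747) or EGF+OSM replicate 2 (0.111). In all, 7 of 9 were called, all higher, where 34.9% of all genes were called and 17.8% were called higher. At 2-fold or more there were 4 of 9, where 2.70% of all genes rose by that much. C3 and CD55 were not called.

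Adding EGF to OSM lowered 8 of the 9 genes (61.7% of all genes called, 31.8% lower), 6 of them by 2-fold or more (10.4% of all genes). C1R fell 20.5-fold (-4.35 ± 0.15, adjusted p = 3.77e-15, edgeR), C1S 19.4-fold (-4.28 ± 0.16) and CFB 9.08-fold (-3.18 ± 0.25). CFI, C3 and C1RL fell 4.27-, 4.03- and 3.99-fold. OSM compared directly with EGF differed for all 9 genes, each of them higher with OSM (56.8% of all genes called, 28.0% higher). The widest differences were 6.85 ± 0.20 for C1S and 6.52 ± 0.17 for C1R, followed by 5.40 ± 0.29 for CFB and 3.28 ± 0.24 for CFI.

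TGFB added to another ligand was called for CD59 and CD55 in every setting. Added to OSM, it was called for 2 of the 9 genes (51.6% of all genes), CD59 higher (0.62 ± 0.06, adjusted p = 7.9e-09, edgeR) and CD55 lower (-0.71 ± 0.10, adjusted p = 1.97e-06). Without OSM replicate 3 this count was 6, and without OSM+TGFB replicate 2 it was 5, with C3, CFB and CFI called lower in both cases. With the replicate number added to the fit as a block the count was also 5, and C3, CFB and CFI were again called lower. Added to EGF, it was called for 5 (54.6% of all genes): CD59 (0.86 ± 0.06), CD46 (0.29 ± 0.06) and C1RL (0.31 ± 0.11) rose, and CD55 (-0.69 ± 0.10) and CFI (-0.94 ± 0.30) fell. The C1RL call (adjusted p = 0.0219) was lost without EGF replicate 3 (0.0963), EGF+TGFB replicate 1 (0.19) or EGF+TGFB replicate 3 (0.0512).

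Added to EGF+OSM, TGFB was called for 4 genes (61.1% of all genes), with CD59, C1RL and CD46 higher and CD55 lower. In each of these 3 settings, and against PBS, TGFB raised CD59 by 0.51 to 0.86 and lowered CD55 by between 0.29 and 0.76 on the log2 scale.

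OSM and EGF also moved most of these genes in the presence of TGFB. OSM added to TGFB was called for 8 genes (56.6% of all genes called), 7 higher (30.1% of all genes) and CD55 lower, with C1S up 9.79-fold, CFB 9.18-fold and C1R 8.28-fold. EGF added to TGFB was called for 8 genes (69.4% of all genes called), 7 lower (35.5% of all genes) and CD59 higher, with C1R down 11.7-fold and C1S 9.78-fold. OSM added to EGF+TGFB was called for 7 genes, all higher (26.4% of all genes called, 13.6% higher). CFI rose 5.11-fold there (2.35 ± 0.28, adjusted p = 2.73e-07, edgeR). The CD46 call (0.24, adjusted p = 0.0053) was lost without EGF+TGFB replicate 3 (0.0794) or EGF+OSM+TGFB replicate 1 (0.0554). EGF added to OSM+TGFB lowered 8 genes (52.2% of all genes called, 25.9% lower), C1R by 19.7-fold and C1S by 14.7-fold. CD46 was among them (-0.20, adjusted p = 0.00927) and was lost without EGF+OSM+TGFB replicate 3 (0.0534).

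Additivity was examined in each gene as a departure: the log2 change with both ligands minus the sum of the changes with each alone. For EGF and OSM the departure was called for 6 of the 9 genes, all negative, where 38.7% of all genes were called and 23.0% were negative. It was -1.42 ± 0.21 for C1R (adjusted p = 1.51e-05, edgeR), -0.95 ± 0.30 for C1S (0.0139), -0.83 ± 0.33 for CFI (0.0486), -0.72 ± 0.15 for C1RL (0.000437), -0.57 ± 0.09 for CD59 (9.92e-06) and -0.31 ± 0.09 for CD46 (0.00699). All 6 were therefore lower with EGF+OSM than the sum of the single changes gives.

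C1R shows what this means in its levels. The single changes of -2.94 and 3.58 add to a small rise, whereas EGF+OSM was 0.77 below PBS on the log2 scale. For CFI the call was lost in 9 of the 12 fits that each left out 1 library, where adjusted p ran from 0.0122 to 0.121, and for C1S it was lost without EGF replicate 1 (-0.85, adjusted p = 0.0639). CFB had a departure of -0.69 (95% interval -1.45 to 0.07, adjusted p = 0.147), called without EGF+OSM replicate 2 (-0.95, adjusted p = 0.0457). The CFB departure was also called with the replicate number added to the fit as a block (-0.67, adjusted p = 0.0197, edgeR). C3 had 0.03 (95% interval -0.47 to 0.52) and CD55 0.18 (95% interval -0.10 to 0.47), both uncalled.

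**Figure D3:**
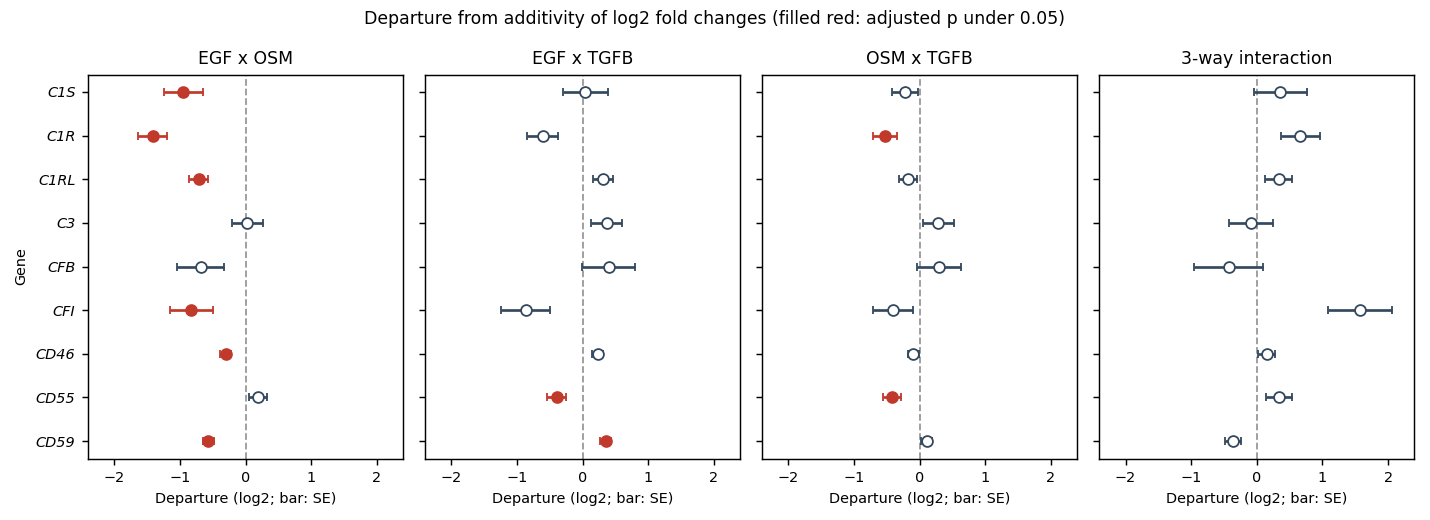
Departure from additivity on the log2 scale for each of the 9 genes, in 1 panel for each pair of ligands and 1 for all 3, with points for the estimates (filled where called) and bars for the SE. For EGF and OSM 6 genes have negative departures that were called, with C1R the farthest from 0 at -1.42, and none was called for the term of all 3 ligands.

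Fewer departures were called with TGFB. For EGF and TGFB 2 genes were called (29.8% of all genes), CD55 at -0.40 ± 0.14 (adjusted p = 0.0318, edgeR) and CD59 at 0.35 ± 0.09 (0.00368). The CD55 call held in 6 of the 12 fits that each left out 1 library (adjusted p 0.00774 to 0.105), whereas CD59 was called in every one. CFI (-0.87, 95% interval -1.66 to -0.08, adjusted p = 0.0835) and C1R (-0.61, 95% interval -1.10 to -0.12, adjusted p = 0.0556) had larger departures for this pair that were not called in the main fit. Both were called with only the compared groups in the fit (adjusted p = 0.0302 and 0.000331, edgeR), and C1R also by DESeq2 (0.008). CD46 (0.23, adjusted p = 0.0527, edgeR) was called by DESeq2 (0.042), without a filter on low counts (0.0247) and with the replicate block (0.00541). It was also called in 3 of the 12 fits that each left out 1 library. For OSM and TGFB 2 genes were called (23.3% of all genes), C1R at -0.53 ± 0.18 (0.0363) and CD55 at -0.42 ± 0.14 (0.0306). The C1R call held in 4 of 12 such fits (0.00387 to 0.108) and the CD55 call in 7 of 12 (0.0123 to 0.0951). For the term of all 3 ligands together 0 of the 9 genes were called in the main edgeR fit (3.90% of all genes). An unadjusted p under 0.05 was found for 3. In the main fit CFI had 1.57 ± 0.49 (adjusted p = 0.0689, edgeR) and CD59 -0.36 ± 0.12 (0.11). Both were called by DESeq2, and by edgeR with the replicate number as a block (adjusted p = 0.0416 and 0.0234). In 24 edgeR fits that each left out 1 library, CFI was called in 2 and CD59 in 1.

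Over the 24 h without ligand, PBS against T0 changed 7 of the 9 genes, 6 of them higher, where 35.1% of all genes were called and 16.2% higher. C3 rose 2.15-fold (1.1 ± 0.17, adjusted p = 3.33e-05, edgeR) from 467, 480.1 and 528 CPM at T0, and was the only one of the 9 past 2-fold (1.92% of all genes rose that far). CFB (0.83 ± 0.25), C1S (0.74 ± 0.16), C1R (0.52 ± 0.14) and CD55 (0.48 ± 0.10) also rose, and C1RL fell (-0.54 ± 0.10). The CFB call was lost without T0 replicate 3 (adjusted p = 0.052). CD46 rose by 0.16 (adjusted p = 0.0437), and this call held in 2 of the 6 fits that left out 1 library (0.032 to 0.186).

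Between genes, levels were compared per kilobase of the annotated canonical transcript. In PBS, C3 was first at 202 ± 22.7 CPM per kb (SD, n = 3), followed by CD46 at 79.7, CD59 at 71.2, CD55 at 61.6, CFB at 19.3, C1R at 12.8, C1RL at 7.95, C1S at 3.84 and CFI at 1.33. In EGF, CD59 was first at 99.4 CPM per kb. In OSM, CD59 stood at 183, C3 at 163, C1R at 153, CFB at 144 and CD46 at 112 CPM per kb. The ranges of C3, C1R and CFB overlapped, and that of CD59 (178.66 to 185.5) lay within each of them. The CD46 range overlapped that of CFB. In OSM+TGFB, CD59 stood at 280.1, C1R at 167 and C3 at 129.9 CPM per kb. CFI had the lowest level in 8 of the 9 groups, and C1S in EGF. The levels of C1R, C1RL and CFB would be lower if their several rows repeat reads. Which transcripts the cells used was not examined. The canonical transcript of CD59 is the longest of the 9 (7563 bases), and its level per kb would be higher if shorter ones were used.

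**Figure D4:**
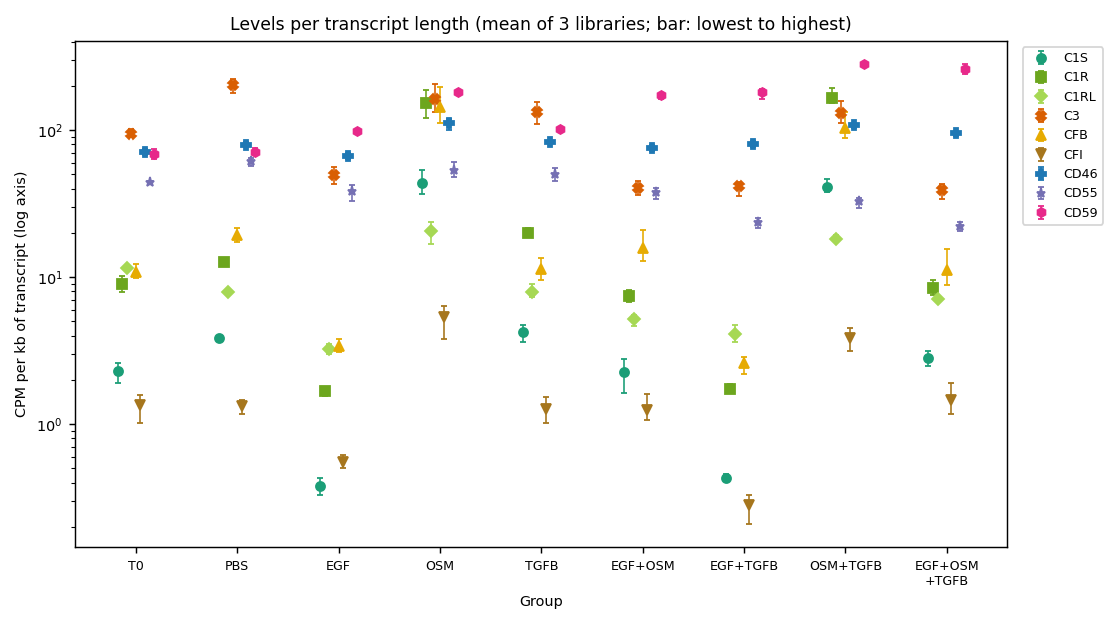
Mean level per kilobase of transcript of the 9 genes in each of the 9 groups, on a log axis, with points for the group means and bars from the lowest to the highest library. C3 leads in PBS at 202 CPM per kb, CD59 leads in EGF at 99.4 and in OSM+TGFB at 280.1, and C1R rises from 12.8 in PBS to 167 in OSM+TGFB.

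For each gene the 2 others with the most similar log2 levels over the 27 libraries were taken from the 11446 candidate genes that reached a mean of 5 CPM in at least 1 group. For C1S they were C1R (r = 0.995) and CFB (0.973), both among the 9. For C1R they were C1S and F2R (0.984), and for CFB C1S and ARID5B (0.971). For CFI they were TENT5A (0.956) and CFB (0.951). The 2 closest to C3 were CTSA (0.963) and SLC43A2 (0.962), and to C1RL RPL10 (0.957) and PNRC1 (0.950). The 2 closest to CD59 were UBE2Q2 (0.985) and SEPTIN10 (0.983), to CD46 CLIP1 (0.968) and EFNA1 (0.942), and to CD55 GIGYF2 (0.957) and APEX1 (0.955). The soluble components other than C3 and C1RL thus had another of these 9 among their closest genes, and no membrane regulator did.

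Of 50 further complement genes, all had a row, 20 passed the filter on low counts and the other 30 had group means of at most 0.232 CPM, C1QA, C1QB and C1QC, which encode the subunits of C1q, among them at 0. Of the 20, 14 were called with EGF (5 higher, 9 lower), 15 with OSM (9 higher, 6 lower) and 6 with TGFB (2 higher, 4 lower), where 73.5%, 63.4% and 35.6% of all genes were called, so these counts lie near the background. The medians of the 20 were -0.83, 0.36 and -0.15 on the log2 scale, against -0.07, 0.00 and -0.01 over all genes. At 2-fold or more, 4 of the 20 rose and 8 fell with EGF, where 27.5% of all genes were called at that size. With OSM 8 rose and 5 fell (20.1% of all genes), and with TGFB 1 rose and 1 fell (5.80%). Those that changed by 2-fold or more in at least 1 comparison with PBS included C2, C3AR1, C4A, C4B, C5, C5AR1, C5AR2, CFD, CLU, CSMD3, ITGAM, ITGAX, ITGB2, MASP2, SERPING1 and SUSD4.

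SERPING1, which encodes the inhibitor of C1r and C1s, rose with OSM from 0.691 ± 0.132 to 15.5 ± 3.57 CPM (SD, n = 3; log2 fold change 4.49 ± 0.28, adjusted p = 8.37e-13, edgeR). It stood at 14.2 CPM with OSM+TGFB and 2.20 CPM with EGF+OSM. C4A and C4B, which encode the substrate of C1s, rose from 0.894 to 5.76 and from 0.932 to 3.70 CPM with OSM; they are near-identical copies, so the split between them is uncertain. C2, the other substrate, held 0.789 CPM in PBS and 0.282 CPM with EGF (-1.48 ± 0.51, adjusted p = 0.0115).

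CLU (clusterin, an inhibitor of the terminal complex) fell with both EGF and OSM, from 51.0 CPM in PBS to 17.0 with EGF and 23.5 with OSM. CSMD3 and SUSD4, membrane proteins with complement control domains, rose with EGF from 0.669 to 5.79 CPM and from 0.263 to 2.36 CPM. With OSM they rose by less, to 3.33 and 0.611 CPM. CFD, which encodes the protease that activates factor B, fell with EGF from 0.484 to 0.134 CPM.

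Among receptors, C5AR1 held 1.64 CPM in PBS and 0.246 with EGF, and C5AR2 held 7.56 CPM in PBS and about 2.5 CPM with either EGF (2.52) or OSM (2.49), but 7.69 CPM with EGF+TGFB. ITGAX and ITGAM, the alpha chains of the integrin receptors for C3 fragments, fell with EGF from 5.64 to 0.907 CPM and from 1.09 to 0.162 CPM, while their partner ITGB2 rose from 3.24 to 9.02 CPM. OSM moved them in the same directions, to 0.309 CPM for ITGAX, 0.182 for ITGAM and 6.85 for ITGB2. C3AR1, the receptor of C3a, stood near 0 in PBS (0.015 CPM) and at 1.40 CPM with EGF+OSM. C5 held 2.46 CPM in PBS and 1.21 CPM with EGF+TGFB.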

How the data were processed

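RNA-seq libraries of MCF10A cells (27; 9 groups of 3) were used as 1 table of estimated counts per gene, deposited by the authors as whole numbers. The submitters' processing notes name Trim Galore 0.4.3, cutadapt 1.10, FastQC 0.11.5, kallisto 0.46.2, R 3.5.0 and the builds GRCh38.p5 and hg38, with no role or order; the annotation release and the way transcripts were summed to genes are not given in the sources used here. The table had 40487 rows. Rows sharing a symbol were summed, and 7165 rows without a symbol (0.324% of counts) kept their own identifiers.

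Groups were taken from the labels. edgeR 4.0.16 (R 4.3.3) was run on all libraries together: low counts were filtered by group, libraries were scaled by TMM, and the robust quasi-likelihood test with 18 residual degrees of freedom gave p-values, adjusted by Benjamini-Hochberg over 15575 genes. The biological coefficient of variation was 7.83%. SE is the log2 fold change divided by the root of the F statistic. The smallest library, of 30.1 M counts (M, 1e6), holds 30.1 counts at 1 CPM, so levels under 1 CPM carry large counting error.

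The genes named are the 9, the 2 closest to each by correlation, and every further complement gene with a called change of at least 2-fold against PBS. A result for 1 of these is not reported here. The 9 genes and the lists were chosen with earlier results of these data known. Alternatives were DESeq2 1.42.0, upper-quartile scaling, no filter, only the compared groups, the largest row in place of the sum, the replicate number as a block, and leaving out each library. The scripts were tested on simulated data. Promoters came from RefSeq and coordinates from GENCODE v44.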

Additional observations from a re-analysis of the deposited data

Results flagged for a closer look

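In the following results the effect of 1 ligand on a gene was called different with and without a second ligand, by the interaction term of edgeR's quasi-likelihood test (adjusted p under 0.05). For EGF and OSM the differences were -1.42 for C1R, -0.95 for C1S, -0.83 for CFI, -0.72 for C1RL, -0.57 for CD59 and -0.31 for CD46 on the log2 scale. For EGF and TGFB they were -0.40 for CD55 and 0.35 for CD59. For OSM and TGFB they were -0.53 for C1R and -0.42 for CD55. CD55, C1R and CD59 thus each appear for more than 1 pair of ligands. When each of 12 libraries was left out in turn, the CFI term was called in 3 fits, the CD55 term for EGF and TGFB in 6, the C1R term for OSM and TGFB in 4 and the CD55 term for that pair in 7. Both OSM and TGFB calls were also lost without a filter on low counts and with only the compared groups in the fit.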

How the results depend on the processing

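Of 198 pairs of a gene and a comparison, 171 had a direction, that is, they were called or had a log2 fold change larger than its SE. Over 33 settings these gave 2298 values, of which 2189 kept their direction and their side of the threshold, 60 lost a call, 47 gained one and 2 changed sign. The 2 that changed sign were C1R for TGFB added to OSM, uncalled at 0.12, which ran from -0.0281 to 0.306 when single libraries were left out (-0.0197 without OSM replicate 3, -0.0281 without OSM+TGFB replicate 2). The causes of these changes were not tested.

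Of the counts of the 9 genes called, 5 moved by more than 1.5 times. The term of all 3 ligands went from 0 to 2 with DESeq2 and to 2 with the replicate block, and ran from 0 to 1 when single libraries were left out. The EGF and TGFB departure went from 2 to 4 with DESeq2, with only the compared groups and with the replicate block, and ran from 1 to 3. The OSM and TGFB departure went from 2 to 0 without a filter and to 0 with only the compared groups, and ran from 0 to 2. TGFB added to OSM went from 2 to 5 with the replicate block and ran from 2 to 6. TGFB against PBS (5 genes) ran from 3 to 5. Over all genes, the term of all 3 ligands was called for 607 genes, for 915 with DESeq2, for 461 without a filter and for 1247 with the replicate block. With only the compared groups, the higher share of all genes called for the EGF and TGFB departure was 33.9% in place of 44.7%.

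Upper-quartile scaling moved the median of all genes by less than 0.1, to -0.14 with EGF against PBS. Among other changed calls, with it CD46 was called lower for EGF+OSM against PBS (-0.17, adjusted p = 0.0215, edgeR). CD55 was called lower for OSM against PBS (-0.26, adjusted p = 0.0185). Libraries of different groups with the same replicate number had deviations that correlated at -0.03 to 0.18 (median 0.06, over 0.1 in 23 of 108 pairs). With different numbers they correlated at -0.16 to 0.12 (median -0.03, over 0.1 in 1 of 216 pairs). Of 27 libraries, 26 correlated best with their own number. The libraries thus varied in part with the replicate number, which the main fit did not include. With the block, among other added calls, C3 was called lower with OSM against PBS (-0.31, adjusted p = 0.0053) as was CD55 (-0.20, adjusted p = 0.00551), the EGF and OSM departure was called for CFB (-0.67, adjusted p = 0.0197), and C3 was called for OSM added to EGF (-0.28, adjusted p = 0.0217) and for the EGF and TGFB departure (0.37, adjusted p = 0.0315). CFI and C1S in the EGF groups are limited by depth.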
